A study of Mus musculus with 6 samples.

Results

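The S100 genes encode small calcium-binding proteins, and 10 of them (S100a1, S100a3, S100a4, S100a5, S100a6, S100a8, S100a9, S100a10, S100a13 and S100b) were followed in olfactory epithelium from newborn mice that had or lacked the transcription factor Atf5. The set was chosen from the results of the same comparison, because S100a5 had the largest fall in the knockout of all 19937 genes measured. The values of its members in that contrast, with their errors and intervals, are therefore given as a description and support nothing. Each of the 10 was measured by 1 probe set that the platform annotation ties to that gene alone. The samples were septa and turbinates of C57BL6 pups on postnatal day 0 from intercrosses of Atf5+/- mice, and 3 samples were Atf5-/- (the knockout) and 3 were Atf5+/+ (the wild type). Each sample pooled tissue of 3 pups and was hybridised to 1 whole-transcript array, so the spread between arrays is a spread between pools. The labels name no other allele or treatment and do not say which part of Atf5 was removed.

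S100 proteins pair into dimers, and most of them change shape when calcium enters the cell and then bind target proteins. Most bind calcium through a pair of EF-hand loops, the motif also found in calmodulin, and several are released from cells and act on surface receptors. In the nose, S100a5 is known as a protein of mature olfactory sensory neurons, the cells that carry odorant receptors, while S100b is known from glia and cartilage and S100a8 and S100a9 from neutrophils.

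All levels below are log2 values of 1 probe set, so a difference of 1 is a doubling, and levels of different genes are not compared with each other. Array medians lay between 8.67 and 8.72. Atf5 was at 9.43 to 9.50 in the knockout arrays and 10.54 to 10.96 in the wild-type arrays. Markers of the labelled tissue were well represented in the wild type, with Omp (olfactory marker protein) at 11.003 to 11.63 and Cyp2g1, a cytochrome of sustentacular cells, at 13.47 to 13.71.

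S100a5 was far lower in the knockout than in the wild type, and it was the only member to show a difference of that order. Its level was 8.80, 8.67 and 8.67 in knockout replicates 1, 2 and 3, and 12.02, 10.71 and 11.64 in wild-type replicates 1, 2 and 3. The groups did not overlap, and a gap of 1.91 separated the lowest wild-type array from the highest knockout array, which is 3.75-fold. The means were 8.71 ± 0.08 (SD, n = 3) for the knockout group, against 11.46 ± 0.68 (SD, n = 3) for the wild-type group. The difference of -2.74 (SE 0.27), the value that chose the set, corresponds to a level 6.70-fold lower in the knockout (95% interval 4.42 to 10.2). In whole tissue, fewer cells of a type and less RNA per cell cannot be told apart. The next largest fall of any gene was -2.57, that of Stoml3, a membrane protein related to stomatin.

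The wild-type arrays themselves spread widely for S100a5 and the knockout arrays did not. The wild-type range was 1.31, so that replicate 1 stood 2.49-fold above replicate 2, against a range of 0.14 in the knockout. The wild-type SD was 8.79 times the knockout SD and lay at percentile 99.7 of all genes, while the knockout SD lay at percentile 42.0. Set side by side by replicate number, the difference was -3.22, -2.05 and -2.97. Without wild-type replicate 2 the difference was -3.12, and without wild-type replicate 1 it was -2.46.

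**Figure D1:**
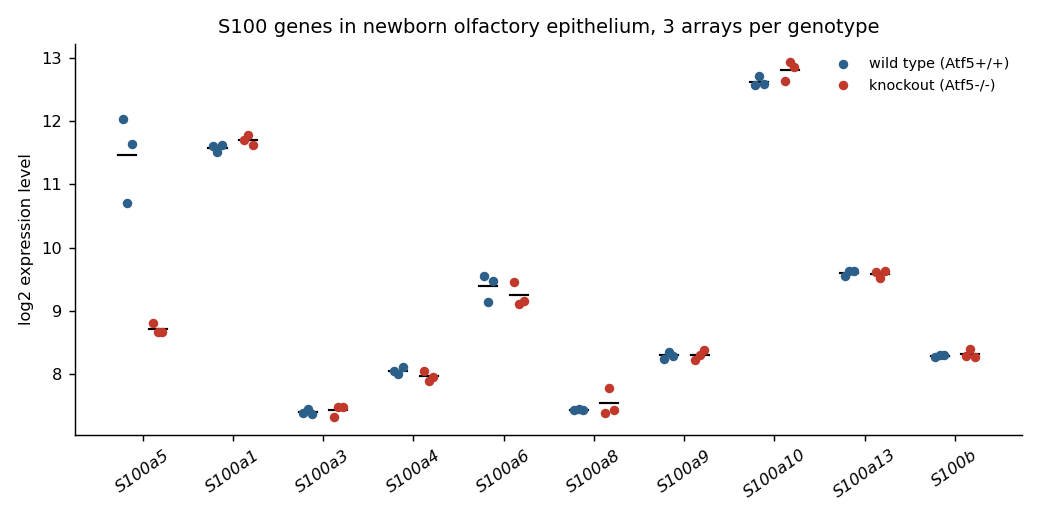
Log2 expression level (vertical axis) of the 10 S100 genes (horizontal axis) in each of 3 wild-type (blue) and 3 knockout (red) arrays, with black bars at the group means. S100a5 falls from 10.71 to 12.02 in the wild type to 8.67 to 8.80 in the knockout, while the 2 colours lie side by side for the other genes.

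The other 9 members differed little between the genotypes. Their differences ran from -0.15 (S100a6) to 0.19 (S100a10), with a median of 0.02, and the median over all genes was 0.01. All 9 intervals at 95% included 0, and the outermost bounds were -0.43 and 0.39. A fall beyond 1.34-fold or a rise beyond 1.31-fold in the array values thus lay outside every one of them. Dim members have little room to show a fall. When the replicate number entered as a block, 8 intervals included 0 and that of S100a10 did not, and the outermost bounds were -0.31 and 0.33. In the fit over all genes (limma with Benjamini-Hochberg adjustment), 3.74% of all genes and 1 of the 10 members, S100a5, were called at 0.05. Since the contrast chose the set, nothing is read from that count. Groups without overlap were seen for 1 member in the lower direction, S100a5 (10.3% of all genes), and for 1 in the higher direction, S100a1 (10.8% of all genes).

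**Figure D2:**
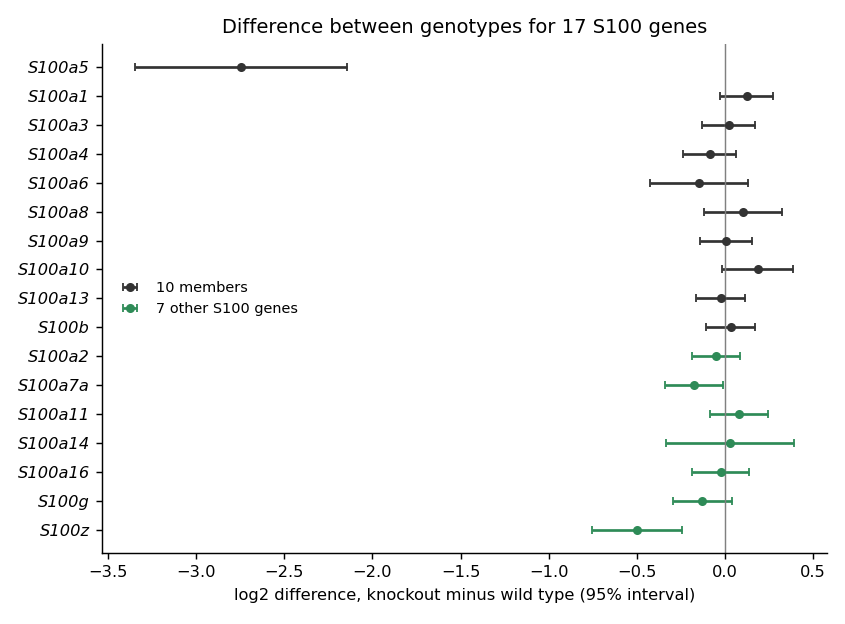
Log2 difference of knockout minus wild type (horizontal axis) with its 95% interval for the 10 members (black) and 7 other S100 genes (green), 3 arrays per genotype. S100a5 stands alone at -2.74, S100z follows at -0.50, S100a7a lies at -0.18, and the remaining members lie between -0.15 and 0.19.

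Most S100 genes lie on mouse chromosome 3, many of them side by side. On that chromosome lie 9 of the members, S100b on chromosome 10 being the exception. In the gene order of the GRCm38.p6 assembly, the 12 S100 genes of the main cluster run S100a1, S100a13, S100a14, S100a16, S100a3, S100a2, S100a4, S100a5, S100a6, S100a7a, S100a8 and S100a9. S100a5 thus sits between S100a4 and S100a6. The 11 other S100 genes of the cluster had differences between -0.18 (S100a7a) and 0.12 (S100a1). The protein-coding genes that flank the cluster were also near 0, with Chtop, an RNA-binding protein of mRNA export, at -0.04 (SE 0.06) and Pglyrp4, a peptidoglycan recognition protein, at -0.09 (SE 0.07). S100a10 lies farther along the chromosome beside S100a11, and the gene after it, Tdpoz2, was at -0.02 (SE 0.07), while Tchhl1, before S100a11, was at -0.08 (SE 0.07). The neighbours of S100b, Prmt2 and Dip2a, were at -0.15 (SE 0.10) and 0.04 (SE 0.06).

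**Figure D3:**
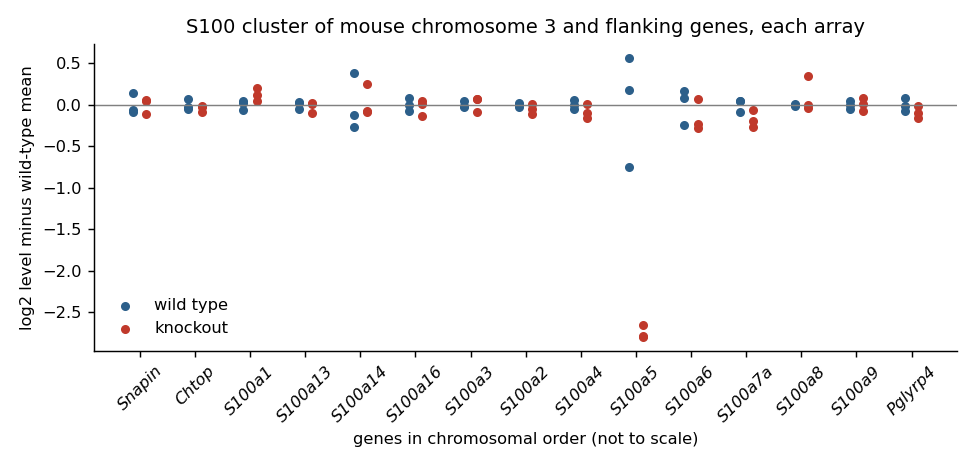
Log2 level minus the wild-type mean of the same gene (vertical axis) in each wild-type (blue) and knockout (red) array, for the S100 cluster of chromosome 3 and its flanking genes in chromosomal order, not to scale. The knockout arrays drop for S100a5 alone, whereas for S100a4 and S100a6 on either side the colours overlap.

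The promoters of S100a5 and of its neighbours are shown because these adjacent genes differed in their response. The sequences come from RefSeq (GRCm38.p6) and run from 250 bases before to 50 bases after the annotated start, 5′ to 3′ on the + strand, at chr3:90603520-90603819 for S100a4, chr3:90608272-90608571 for S100a5 and chr3:90612644-90612943 for S100a6. Capitals mark matches to any of the 6 motifs searched.
S100a4: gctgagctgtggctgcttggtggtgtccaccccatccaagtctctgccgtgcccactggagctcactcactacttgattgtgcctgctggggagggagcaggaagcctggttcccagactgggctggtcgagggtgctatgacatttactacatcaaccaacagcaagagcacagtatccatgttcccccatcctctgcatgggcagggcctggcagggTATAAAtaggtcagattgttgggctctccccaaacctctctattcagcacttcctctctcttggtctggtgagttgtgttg
S100a5: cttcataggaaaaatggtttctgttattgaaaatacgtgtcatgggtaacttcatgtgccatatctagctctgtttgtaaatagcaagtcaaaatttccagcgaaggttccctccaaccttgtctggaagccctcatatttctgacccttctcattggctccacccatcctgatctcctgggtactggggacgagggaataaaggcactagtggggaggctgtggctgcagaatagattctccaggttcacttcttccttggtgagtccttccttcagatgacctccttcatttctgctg
S100a6: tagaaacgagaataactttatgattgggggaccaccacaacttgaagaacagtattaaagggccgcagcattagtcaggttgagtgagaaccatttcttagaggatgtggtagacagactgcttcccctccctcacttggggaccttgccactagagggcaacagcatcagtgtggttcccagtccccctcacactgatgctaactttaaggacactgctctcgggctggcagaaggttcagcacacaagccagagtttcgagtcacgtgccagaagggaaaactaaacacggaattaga

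The motifs were searched on both strands in the 300-base windows. They were the palindrome of EBF factors, which are known to act in olfactory neurons, the cyclic AMP response element TGACGTCA, its core TGACG (which the full element contains), the composite C/EBP-ATF element TGATGNAA, the TATA box TATAAA and the homeodomain site TAATTA. No match to any of the 6 was found in the S100a5 or the S100a6 window. S100a4 had a TATA box that began 31 bases before the start. Promoter windows were held for 9 members (12 windows, as S100a3 has 4), and S100a10 had none. Of these 12 windows, 4 held TATAAA (S100a3, S100a4, S100a8 and S100a9) and 2 held TGACG (S100a3 and S100a13). The TATAAA of S100a3, S100a8 and S100a9 began at positions -52, -30 and 1 from the start, so the count is of the sequence alone. In 0 of the 12 was there an EBF palindrome, a full response element, a composite element or a homeodomain site. Over all 32851 windows of the table the shares with a match were 13.6% for TATAAA, 20.8% for TGACG, 0.904% for the EBF palindrome, 1.79% for TGACGTCA, 3.97% for TGATGNAA and 5.29% for TAATTA. S100a1 and S100a13 lie head to head, and their windows shared 204 bases.

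S100a6 (calcyclin), a protein of proliferating and epithelial cells, was the member with the largest spread after S100a5. Its level was 9.46, 9.11 and 9.16 in knockout replicates 1 to 3 and 9.56, 9.14 and 9.47 in wild-type replicates 1 to 3. The groups overlapped, and the difference was -0.15 (SE 0.12, 95% interval -0.43 to 0.13). It was below 0 in all 3 pairs of the same replicate number (-0.09, -0.03 and -0.31), with an interval of -0.31 to 0.02 under the block. Its pooled SD within genotype, 0.20, lay at percentile 96.1 of all genes, against percentiles of 14.5 to 87.0 for the members other than S100a5 and S100a6. In the wild type its arrays stood in the order of S100a5, with replicate 1 highest and replicate 2 lowest. Over the 6 deviations from the genotype means, S100a5 and S100a6 correlated at r = 0.82. That is a description in which the deviations of a genotype sum to 0 and which rests mainly on the 3 wild-type arrays. Other pairs of members had values larger in size, such as 0.96 for S100a3 with S100a10 and -0.92 for S100a6 with S100a10. The value is thus not particular to S100a5 and S100a6. Cacybp, which binds S100a6, was at -0.01 (SE 0.07).

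S100a4, known from fibroblasts and motile cells as a partner of non-muscle myosin, was at 8.06, 7.89 and 7.95 in the knockout arrays against 8.05, 8.004 and 8.11 in the wild type. The groups overlapped, at a difference of -0.09 (SE 0.07). S100a3, a protein of the hair cuticle, was at 7.33, 7.48 and 7.48 in the knockout arrays against 7.39, 7.46 and 7.38 in the wild type, a difference of 0.02 (SE 0.07). S100a3, S100a4 and S100a8 had means under the 30th percentile of all genes (8.14), so 7 of the 10 members passed a filter at that level.

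S100a10, also called p11, has lost the ability to bind calcium and carries annexin A2 to the cell membrane. It was at 12.62, 12.935 and 12.86 in the knockout arrays against 12.56, 12.71 and 12.59 in the wild type. Knockout replicates 2 and 3 lay above every wild-type array and replicate 1 did not, so the groups overlapped, and the difference was 0.19 (SE 0.09, 95% interval -0.01 to 0.39). Within pairs of the same replicate number the knockout was higher each time, by 0.06, 0.22 and 0.27, and the interval under the block was 0.04 to 0.33. Its partner Anxa2 was at 11.67, 11.93 and 11.86 in the knockout arrays against 11.45, 11.79 and 11.44 in the wild type, and its difference of 0.26 (SE 0.11) did not pass (limma adjusted p = 0.274). Fibroblast and bone markers, a tissue in which S100a4 and S100a10 are also found, were higher in the knockout for Lum (lumican, 0.35, SE 0.08, limma adjusted p = 0.0428). Lum was the only 1 of 12 that passed, against 0.502% of all genes called higher. That call was lost after quantile normalization or median centring, and also when the second or the third knockout array, or the first or the second wild-type array, was left out. Col1a1 and Col1a2, collagen chains, were at 0.13 (SE 0.17) and 0.17 (SE 0.15). The list mean was 11.92 to 12.13 in the knockout arrays against 11.79 to 11.96 in the wild type, and its part in the values of these members was not tested.

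S100a1, known from muscle as a partner of calcium release channels, was the member whose knockout arrays all lay above the wild type. It was at 11.70, 11.78 and 11.62 in the knockout arrays against 11.60, 11.51 and 11.62 in the wild type. The gap between the groups was 0.0048, and after centring the arrays on their medians the groups overlapped. The difference was 0.12 (SE 0.07, 95% interval -0.03 to 0.27), and it was above 0 in all 3 pairs of the same replicate number (0.10, 0.27 and 0.0048). Skeletal muscle markers were above 0 in all 12 measured genes, with a median of 0.37, Acta1 (skeletal actin) at 0.59 (SE 0.31) and Ttn (titin) at 0.61 (SE 0.29), but none passed the limma test (2 at an unadjusted p under 0.05, and 2 passed with the block). Their mean was 9.53 to 9.86 in the knockout arrays against 8.698 to 9.62 in the wild type, where replicate 1 was lowest. The list median rests on that array: it was 0.07 without it, and 0.55 without wild-type replicate 2 or 3, and Myh3 passed without replicate 2. The part of muscle tissue in the level of S100a1 was not tested.

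S100a13, which takes part in the release of the growth factor Fgf1 together with a fragment of synaptotagmin 1, was at 9.61, 9.51 and 9.62 in the knockout arrays against 9.56, 9.63 and 9.62 in the wild type. The groups overlapped at a difference of -0.02 (SE 0.06), and Fgf1 was at -0.01 (SE 0.07). Syt1, the other component and a calcium sensor of synaptic vesicles, fell from 10.92 to 11.07 in the wild type to 9.75 to 10.17 in the knockout, by 1.00 on the log2 scale (SE 0.10, limma adjusted p = 0.00126), or 2.00-fold (95% interval 1.70 to 2.35).

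S100a8 and S100a9 form calprotectin, a heterodimer that neutrophils release and that binds zinc and manganese. S100a8 was at 7.39, 7.78 and 7.44 in the knockout arrays against 7.44, 7.44 and 7.43 in the wild type, so knockout replicate 2 stood apart and the other arrays lay between 7.39 and 7.44. S100a9 was at 8.22, 8.31 and 8.38 in the knockout arrays against 8.25, 8.35 and 8.29 in the wild type. Both overlapped between genotypes, at differences of 0.10 (SE 0.10) and 0.01 (SE 0.07). The high array of S100a8 had no counterpart in S100a9. None of 20 neutrophil markers passed the limma test (3 at an unadjusted p under 0.05). With the replicate number as a block Ngp, Ltf and Mmp8 passed, after quantile normalization Ngp, and without knockout replicate 1 Ltf. Ngp and Camp, granule proteins, were at 0.30 (SE 0.08) and -0.08 (SE 0.08). None of 14 macrophage markers passed either (6 at an unadjusted p under 0.05, all higher, and 2 with the block), with Cd68 and Csf1r at 0.27 (SE 0.09) and 0.17 (SE 0.06). Tlr4, a receptor for calprotectin, was at 0.07 (SE 0.11).

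S100b, the glial member, was at 8.29, 8.40 and 8.28 in the knockout arrays against 8.27, 8.30 and 8.30 in the wild type. Its wild-type range of 0.04 was smaller than its knockout range of 0.13, the groups overlapped, and the difference was 0.03 (SE 0.06, 95% interval -0.11 to 0.17). Ager, the receptor for advanced glycation end products and a receptor of S100b, was at -0.08 (SE 0.07). None of 12 markers of ensheathing glia and Schwann cells passed the limma test (3 at an unadjusted p under 0.05, and Fabp7 passed with the block, after quantile normalization or with a trended robust prior), with Fabp7, a fatty acid binding protein of ensheathing glia, at -0.25 (SE 0.06, limma adjusted p = 0.0588) and Sox10 at 0.02 (SE 0.07). None of 17 cartilage markers passed (0 at an unadjusted p under 0.05), with Col2a1 and Acan, the main collagen and proteoglycan of cartilage, at -0.01 (SE 0.09) and 0.16 (SE 0.09).

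Outside the 10 members the arrays measured 7 further S100 genes. By limma 1 of them was called lower and 0 higher, against 3.24% of all genes lower and 0.502% higher. S100z, which lies apart on chromosome 13, was at 8.19, 8.28 and 7.94 in the knockout arrays against 8.74, 8.75 and 8.42 in the wild type. The groups did not overlap, and the difference was -0.50 (SE 0.11, limma adjusted p = 0.0439), or 1.41-fold lower (95% interval 1.19 to 1.69). The call ended with any 1 array other than wild-type replicate 3 left out (highest adjusted p = 0.171) and after quantile normalization (0.0789) or median centring (0.0625), and it held with the replicate number as a block (0.00212). Its measured neighbour Crhbp was at 0.04 (SE 0.07). S100g (calbindin D9k), at -0.13 (SE 0.07), also had groups without overlap but did not pass (limma adjusted p = 0.446). S100a7a, at -0.18 (SE 0.07), had a 95% interval of -0.34 to -0.01 but did not pass (limma adjusted p = 0.280). S100a2 was at -0.05 (SE 0.06), S100a14 at 0.03 (SE 0.16) and S100a16 at -0.03 (SE 0.07). S100a11 had a pair of probe sets that differed, at 0.08 for the brighter and 0.23 for the other, and RefSeq also lists a pseudogene of it, so its value is uncertain. S100a7l2 and S100p were not analysed here.

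Among proteins that bind S100 proteins or act as their receptors, 2 of 24 measured genes fell, 0 rose and 22 did not pass (limma, against 3.24% of all genes lower and 0.502% higher). The list median was 0.02. Beside Syt1, the one that fell was Asic1, an acid-sensing channel that S100a10 is known to carry to the membrane, at 8.93 to 8.98 in the knockout arrays against 9.33 to 9.43 in the wild type (difference -0.41, SE 0.06, limma adjusted p = 0.00609). Anxa1 was at 0.12 (SE 0.13). Both calls held with any 1 array left out.

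Of 37 other EF-hand proteins measured, 2 fell, 0 rose and 35 did not pass (limma, against 3.24% of all genes lower and 0.502% higher), at a list median of 0.04. Vsnl1 (visinin-like protein 1), a neuronal calcium sensor, was at 9.24, 9.63 and 9.08 in the knockout arrays against 10.95, 10.98 and 10.68 in the wild type, a difference of -1.55 (SE 0.14, limma adjusted p = 0.000676) or 2.94-fold (95% interval 2.37 to 3.64). Calb2 (calretinin), a calcium buffer of neurons, was at 11.58, 11.58 and 11.24 in the knockout arrays against 12.39, 12.30 and 11.98 in the wild type, a difference of -0.76 (SE 0.12, limma adjusted p = 0.0105). Calmodulin genes Calm2 and Calm3 were at -0.23 (SE 0.06, limma adjusted p = 0.102) and -0.15 (SE 0.08). When the replicate number entered as a block, 5 among these 37 passed, the additional ones being Gca and Kcnip4, lower, and Necab1, higher. Gca and Kcnip4 also passed with a trended robust prior, Kcnip4 without knockout replicate 2, and Calm2 with the mean of probe sets.

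**Figure D4:**
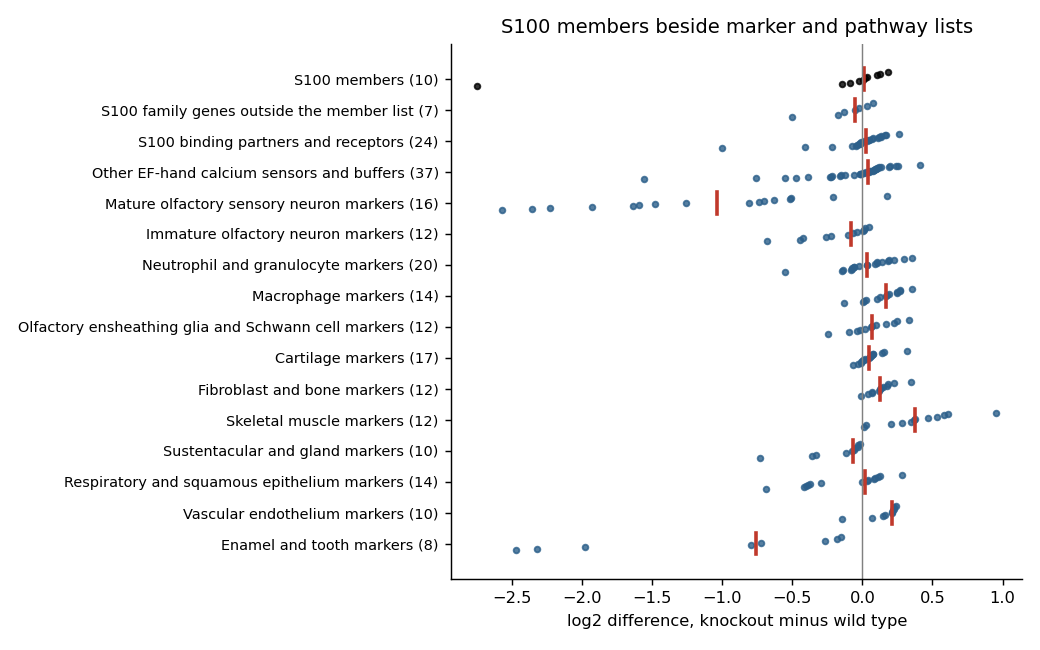
Log2 difference of knockout minus wild type (horizontal axis) for each measured gene (points) of the S100 members and 15 other gene lists, with red bars at the list medians and the number of genes in brackets. The S100 members centre on 0.01 with S100a5 far to the left, whereas the mature olfactory neuron markers have a median of -1.03.

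The genes whose profiles over the 6 arrays were most like that of S100a5 depended on the measure, and the 2 sets of 5 shared no gene. Both measures use the contrast that chose S100a5, and the distance favours genes with falls of similar size, so they are a description only. By the distance between profiles centred on their own means, the nearest 5 genes were Omp (0.81), Gnal, which encodes the G protein subunit that couples odorant receptors to their signal (0.94), Faim2, an apoptosis inhibitor of neurons (1.29), Stoml3 (1.30) and Cnga2, a subunit of the olfactory cation channel (1.47). By Pearson correlation over the 6 arrays, which ignores the size of a difference, they were Sytl2 (0.998), Olfr392 (0.997), Ndrg4 (0.994), Padi2 (0.994) and Olfr284 (0.994). In all, 291 genes reached 0.95, so a high value over these arrays, which differ by genotype, was common. Differences of the latter 5 were smaller than that of S100a5, from -0.57 (Sytl2) to -0.31 (Ndrg4).

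Within the genotypes the genes nearest by distance varied in their likeness to S100a5, while those nearest by correlation kept close to it. Omp was at 11.63, 11.003 and 11.40 in wild-type replicates 1, 2 and 3, in the order of S100a5, and its deviations from the genotype means correlated with those of S100a5 at 0.99. The same value was 0.82 for Gnal, -0.03 for Cnga2, -0.30 for Faim2 and -0.34 for Stoml3. For Sytl2, Olfr392, Ndrg4, Padi2 and Olfr284 it was 0.959 to 0.999, values that their choice by correlation favours. Stoml3 was highest in wild-type replicate 2, where S100a5 was lowest. Of 16 measured markers of mature neurons, 13 were highest in wild-type replicate 1 and 10 lowest in replicate 2, with 9 doing both. The share of all genes with that order was not taken, so nothing is read from these counts. The wild-type range of these markers was 0.09 to 0.63, the largest being that of Omp, and S100a5 exceeded all of them with 1.31.

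**Figure D5:**
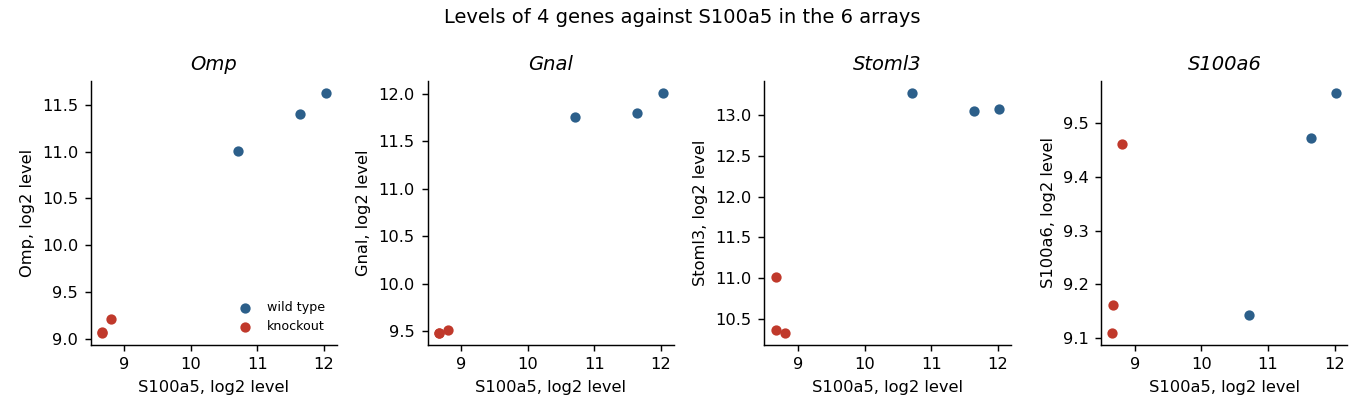
Log2 levels of Omp, Gnal, Stoml3 and S100a6 (vertical axes) against the log2 level of S100a5 (horizontal axes) in the 6 arrays, wild type in blue and knockout in red. Omp rises with S100a5 among the 3 wild-type arrays, Stoml3 does not, and S100a6 varies with S100a5 in the wild type while the genotypes overlap on its axis.

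The lists of cell types give the setting in which S100a5 fell. Of 16 markers of mature olfactory neurons, 14 fell by limma, 0 rose and 2 did not pass, at a list median of -1.03. Over all genes 3.24% were called lower and 0.502% higher. Omp was at a difference of -2.23 (SE 0.14, limma adjusted p = 0.000103), or 4.69-fold lower, and Gnal was at a difference of -2.36 (SE 0.08, limma adjusted p = 2.12e-06), or 5.13-fold lower. The list mean was 9.34 to 9.43 in the knockout arrays against 10.47 to 10.68 in the wild type. This direction was known when the list was drawn up and is no independent evidence for S100a5. Of 12 immature neuron markers 3 fell, Dcx, Gap43 and Gng8, and 9 did not pass, at a median of -0.08, and without wild-type replicate 1 or 2 only Dcx passed.

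Other tissues in the samples also moved with genotype or between arrays. Of 8 enamel genes 2 fell, Enam and Amelx, at -2.47 (SE 0.51) and -1.98 (SE 0.46), against 3.24% of all genes called lower. The list mean was 7.88 to 8.46 in the knockout arrays against 8.76 to 9.88 in the wild type, where replicate 3 was lowest. With wild-type replicate 3 left out, or with the block, 4 of them passed. Only Enam passed after quantile normalization, median centring, averaging of probe sets or the 30th percentile filter, and only Amelx without knockout replicate 3. None passed with a trended robust prior, nor when the first or the second array of either genotype was left out. The part of tooth tissue in the fall of S100a5 was not tested. No gene of the lists for sustentacular and gland cells (10 measured, 2 at an unadjusted p under 0.05, and 2 with the block), respiratory and squamous epithelium (14, 0) or vascular endothelium (10, 5) passed the limma test. Without wild-type replicate 3, whose respiratory list mean of 9.81 stood below the 10.38 and 10.57 of the other wild-type arrays, Krt14, Krt6a and Lor passed as lower and the list median was -0.21 in place of 0.02. Without knockout replicate 3 Elf3 passed as higher. Of the sustentacular list, Cyp2g1 also passed with a trended robust prior or without knockout replicate 1, and Obp1a without wild-type replicate 2. All 10 genes of that list were below 0, at a median of -0.07. The list mean was 11.82, 11.69 and 11.55 in knockout replicates 1, 2 and 3. In wild-type replicates 1, 2 and 3 it was 12.10, 11.69 and 11.80, in the order of S100a5. Cyp2g1 was at -0.36 (SE 0.09), Cyp1a2 at -0.33 (SE 0.38), the keratins Krt5 and Krt14 at -0.40 (SE 0.20) and -0.37 (SE 0.17), and the endothelial genes Pecam1 and Cdh5 at 0.21 (SE 0.09) and 0.23 (SE 0.07). Over these 3 lists and those of neutrophils, macrophages, glia, cartilage and muscle, 0 of 109 genes passed. Of these 109, 21 were at an unadjusted p under 0.05, and 10 passed under the block. For comparison, 1310 of all 19937 genes passed under the block. How many of all genes lay under that unadjusted level was not counted. Nothing is therefore read from the unadjusted counts, here or for the single lists.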

How the data were processed

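Total RNA of the 6 samples was hybridised to Affymetrix whole-transcript arrays, 1 per pool of pups. RMA, affy and limma are named in the submitters' processing notes, without versions, and RMA as generally defined makes the arrays share nearly 1 distribution, so a change common to most transcripts is not visible. The values deposited by the authors ran from 4.50 to 14.67 and were read as log2 levels; the base of the logarithm is not given in the sources used here. Of 34760 rows, 21640 had 1 gene symbol in GEO's platform annotation, and the probe set with the highest mean over the 6 arrays was taken for each of 19937 genes. Knockout and wild type were compared by limma 3.58.1 in R 4.3.3 (lmFit and eBayes, no filter, no covariate, 2-sided), with p-values adjusted by Benjamini-Hochberg over every gene and called at 0.05; SE and 95% intervals are moderated. The same step was run on simulated data drawn independently for each array, which does not cover an effect shared by arrays of the same number.

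The members and gene lists were chosen with earlier results of these data known. Genes named were Atf5, all S100 genes, from each list the first 2 measured and up to 4 past the threshold with the largest change, the 5 nearest S100a5 by each measure and the chromosomal neighbours; other named binding partners, genes called only under an alternative, and the markers compared with S100a5 within genotypes, were picked after their values were seen. Replicate numbers were left out of the model. For same-numbered arrays, deviations from the genotype means had correlations of 0.30, 0.12 and 0.23, above 0.1 in each case. A pairing is thus possible from the data alone, but deviations of a genotype sum to 0, so these values are not independent. The labels do not say what a shared number means, so the reported fit is unpaired and the block is an alternative. The p-values measure the spread between pools. Alternatives were the replicate block, quantile normalization, median centring, the mean of probe sets, a filter at the 30th percentile, a trended robust prior and each array left out. Precision is limited by how few arrays there are. No table of protein sequences was used here.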

Additional observations from a re-analysis of the deposited data

How the results depend on the processing

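The difference of S100a5 lay between -3.12 and -2.46 under the 12 alternatives, and each other member moved by less than its spread between replicates under every alternative run on it. The 30th percentile filter leaves out S100a3, S100a4 and S100a8. The number of members whose groups did not overlap was 1 after median centring and 2 to 5 with 1 array left out. Fewer arrays make such groups easier to get for any gene. The share of all genes was not taken under these settings, so nothing is read from these counts. Genes called numbered 745 as reported (100 higher, 645 lower), 1310 with the replicate number as a block (421 higher), 432 with the 30th percentile filter (358 lower), and 410 to 649 with 1 array left out (27 to 127 higher, 383 to 584 lower). The filter tests fewer genes and the omissions use fewer arrays; for the block the cause was not tested. The 3 lists outside the members held 5 calls as reported, 8 with the block, and the block changed no call of S100z, Syt1, Asic1, Vsnl1 or Calb2. Members near the dim end have little room to fall, which limits S100a3, S100a4 and S100a8. S100a9 and S100b, at means of 8.30 and 8.31, lay little above the 30th percentile (8.14), so the same may hold for them.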
